A study of Homo sapiens with 2 samples.

Results

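The genes described are 10 chemokine receptors of lymphocytes, CCR4, CCR6, CCR7, CCR8, CCR9, CCR10, CXCR3, CXCR4, CXCR5 and CXCR6, among 19220 gene symbols in the count table. They were taken by symbol, and all 10 were found. They were picked because CCR4 and its family lay higher with doxorubicin in these same libraries, so their differences between the libraries are given as a description and support nothing further. At the level of the family that label holds only in part. Of the 5 receptors with enough counts to be compared, 2 were clearly higher and 2 were within 1.2-fold of the untreated level. CXCR4 was 1.27-fold lower, short of the 1.5-fold limit used below. After an adjustment for transcript length described below, CCR7, CXCR3 and CXCR4 stood at log2 ratios of 0.38, 0.31 and -0.13.

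The RNA came from H9 cells, an established human T cell line derived from a cutaneous T cell lymphoma line and labelled as wild type. There was 1 library of cells exposed for 6 h to 0.05 µM doxorubicin, an anthracycline drug that poisons topoisomerase II, and 1 library labelled as 0 h of doxorubicin, here called untreated. Both came from the same kind of culture, and polyadenylated RNA was selected. There was no untreated library at 6 h, so differences that go with the drug and with 6 h of further culture cannot be told apart. The libraries held 50174434 counts with doxorubicin and 33730703 untreated, so the treated library was 1.49 times deeper, and without a replicate the spread between cultures is unknown.

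Chemokine receptors are G protein-coupled receptors that steer migrating lymphocytes along gradients of small secreted proteins, the chemokines. Each T cell subset carries its own set. CCR4 directs T cells to skin and is carried by helper type 2, regulatory and skin-homing T cells, and it is the target of a therapeutic antibody used in cutaneous T cell lymphoma. CCR8 marks regulatory and skin-resident T cells, CCR7 leads cells into lymph nodes, CXCR3 leads helper type 1 cells to inflamed tissue, and CXCR4 holds cells in bone marrow. Ligand binding activates inhibitory G proteins, which drive actin remodelling and adhesion, and the receptors are then silenced by kinases and arrestins.

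The 5 receptors with at least 100 counts over both libraries share a family signature at the inner end of the third membrane helix, the Asp-Arg-Tyr motif that couples them to G proteins. Their coding sequences around it are printed because they show how far the 2 higher receptors resemble each other. Each line runs 5′ to 3′ over 57 coding bases of the longest GENCODE release 29 transcript that is paired with RefSeq, and the capitals mark the codons of the motif.
CCR4: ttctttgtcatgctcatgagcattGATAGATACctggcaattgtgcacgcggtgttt
CCR8: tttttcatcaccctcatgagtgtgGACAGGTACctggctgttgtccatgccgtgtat
CCR7: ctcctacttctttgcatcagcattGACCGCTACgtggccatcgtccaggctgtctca
CXCR3: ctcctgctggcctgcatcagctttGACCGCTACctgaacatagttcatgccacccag
CXCR4: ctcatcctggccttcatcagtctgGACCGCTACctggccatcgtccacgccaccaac

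Over this stretch CCR4 and CCR8 have the same base at 41 of 57 positions, CCR4 and CCR7 at 35, CCR4 and CXCR4 at 31, and CCR4 and CXCR3 at 29. CXCR3 and CXCR4 have the same base at 44. CCR4 and CCR8 both lie on chromosome 3 with a single coding exon, as do CXCR3 on chromosome X and CXCR4 on chromosome 2 in the transcripts used, while CCR7 on chromosome 17 has 3 coding exons. Few stretches of these 5 genes recur elsewhere. Among stretches of 50 bases sampled every 25 bases, 0 of 49 from CCR8, 0 of 85 from CCR7, 0 of 73 from CXCR3 and 0 of 74 from CXCR4 occur in a transcript of another gene. For CCR4 it was 4 of 122, and none of the exons of these 5 genes overlaps another gene.

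CCR4 had 3608 counts in the doxorubicin library and 881 in the untreated library. Scaled by effective library size (TMM), this was 70.2 counts per 1000000 (CPM) with doxorubicin, with an exact Poisson 95% interval of 68.0 to 72.6, against 26.7 CPM untreated (25.004 to 28.6). The intervals lie far apart. The ratio was 2.63-fold (2.44 to 2.83), a log2 ratio of 1.39 (1.29 to 1.501), and 36 of the 11244 genes with at least 100 counts had a higher ratio. These intervals cover counting error only.

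CCR8, a receptor for CCL1, was the other clearly higher member. It had 1562 counts with doxorubicin and 537 untreated, or 30.4 CPM (28.9 to 32.0) against 16.3 CPM (14.95 to 17.7). The ratio was 1.86-fold (1.69 to 2.06), and 201 measured genes had a higher ratio. Before any adjustment for transcript length, CCR4 and CCR8 did not move by the same factor. There were 2.31 CCR4 counts per CCR8 count with doxorubicin and 1.64 untreated. The ratio of these values was 1.41 (1.25 to 1.59) and does not depend on library scaling. After the length adjustment described below, the log2 ratios were 1.38 for CCR4 (1.28 to 1.49) and 1.32 for CCR8 (1.18 to 1.46), with overlapping intervals.

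CCR7, which reads CCL19 and CCL21, had 8735 counts with doxorubicin and 4749 untreated. Its level was 170.0 CPM with doxorubicin and 144.1 CPM untreated, a difference of 1.18-fold (1.14 to 1.22) that lay beyond counting error but was small. CXCR3, the receptor for CXCL9, CXCL10 and CXCL11, had 468 and 281 counts, or 9.11 CPM with doxorubicin (8.30 to 9.97) and 8.53 CPM untreated (7.56 to 9.59). Those intervals overlap, and its log2 ratio of 0.09 (-0.12 to 0.31) spans 0.

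CXCR4, the receptor for CXCL12, was the most abundant member in both libraries. It had 11293 counts with doxorubicin and 9188 untreated, or 219.8 CPM (215.8 to 223.9) against 278.9 CPM (273.2 to 284.6). The intervals do not overlap, and the level was 1.27-fold lower with doxorubicin (1.23 to 1.30). In bulk RNA, fewer cells carrying a receptor and less receptor RNA per cell cannot be told apart.

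Because there is no replicate, no test between conditions can be made, and a size rule stands in its place. A gene was called higher or lower when it had at least 100 counts over both libraries, a ratio of at least 1.5-fold and a counting interval that excluded 1. By this rule 2 of the 5 measured receptors, CCR4 and CCR8, were higher and 0 were lower, while 7.26% of all 11244 measured genes were called higher and 9.57% lower (16.8% in all). As the members were picked on this contrast, nothing is read from that comparison. The median log2 ratio of the 5 was 0.24, beside 0.007 over all measured genes.

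**Figure D1:**
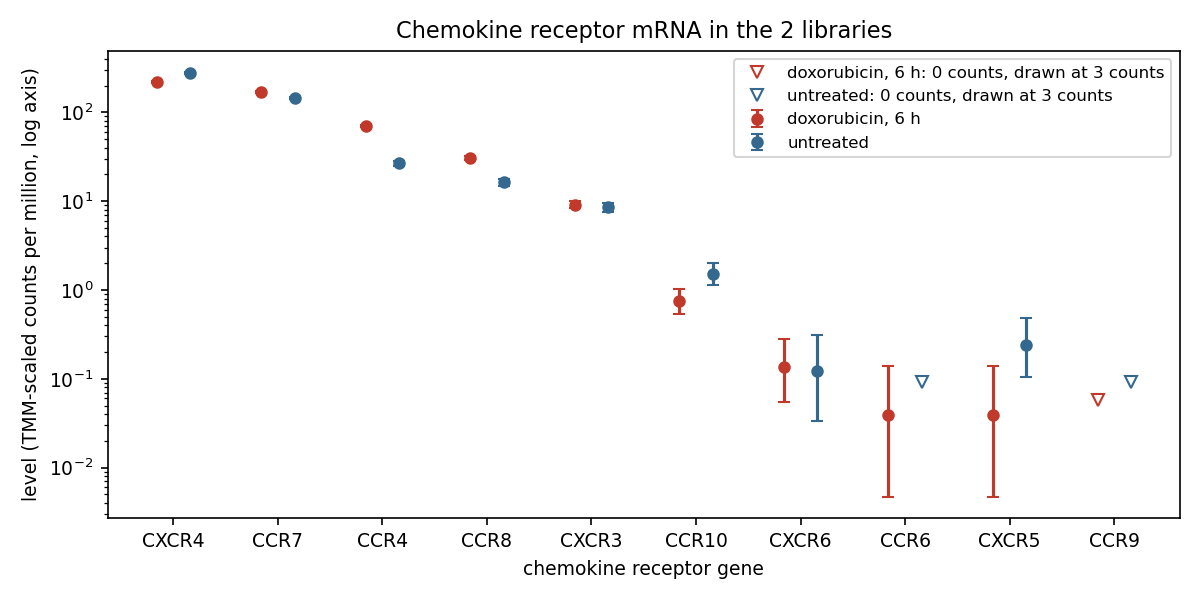
Level of each of the 10 receptors in the doxorubicin library (red, left) and the untreated library (blue, right), in TMM-scaled CPM on a log axis, with exact Poisson 95% intervals. Open triangles mark 0 counts and are drawn at the level of 3 counts. CXCR4 and CCR7 are the highest in both libraries, and CCR4 and CCR8 stand higher with doxorubicin.

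The other 5 receptors had few counts in both libraries. CCR10, the second skin-homing receptor, had 39 counts with doxorubicin and 50 untreated, or 0.759 CPM (0.540 to 1.04) against 1.52 CPM (1.13 to 2.00). It was thus on the opposite side from CCR4, with a log2 ratio of -0.995 (-1.64 to -0.37), although 24.8% of its exons overlap an antisense gene. From halved counts the interval of CCR10 came near 0, at -1.89 to -0.06. After the length adjustment described below its log2 ratio was -0.75 (-1.40 to -0.12). CXCR6 had 7 counts with doxorubicin and 4 untreated, and CXCR5, the B cell follicle receptor, had 2 and 8. CXCR5 values are uncertain, since 88.6% of its exons overlap BCL9L on the other strand and it is not stated whether strand was used in counting. CCR6, the receptor for CCL20, had 2 counts with doxorubicin and 0 untreated, but 74.9% of its exons overlap another gene and its level is uncertain. CCR9, the gut-homing receptor, had 0 in both. Taking 3 counts as the one-sided limit for a count of 0, the level could be up to 0.0584 CPM in the doxorubicin library and 0.0911 CPM in the untreated library.

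Seen as a repertoire, the cells carried mainly CXCR4 and CCR7 mRNA. The 5 measured members made up 98.86% of the counts of all 18 typical chemokine receptors with doxorubicin and 98.96% untreated. The summed level of the 18 was 505.4 CPM with doxorubicin and 479.6 CPM untreated. Within it, CCR4 took 13.9% of receptor counts with doxorubicin (exact binomial interval 13.5 to 14.3) and 5.58% untreated (5.22 to 5.94). CCR8 took 6.02% with doxorubicin (5.73 to 6.31) and 3.40% untreated (3.12 to 3.69), and CXCR4 took 43.5% (42.9 to 44.1) and 58.1% (57.4 to 58.9). There were 3.13 CXCR4 counts for each CCR4 count with doxorubicin and 10.4 untreated.

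Levels of different genes compare only per length. Per kilobase of annotated transcript, CXCR4 stood at 116.0 CPM with doxorubicin and 147.2 untreated, and CCR7 at 78.3 and 66.3. CCR8 followed at 24.3 CPM per kilobase with doxorubicin (23.1 to 25.5) and 13.0 untreated (11.9 to 14.2). CCR4 stood at 22.7 CPM per kilobase with doxorubicin (22.0 to 23.4) and 8.64 untreated (8.08 to 9.23), and CXCR3 at 4.90 and 4.58. CCR4 and CCR8 thus had overlapping intervals in the doxorubicin library but not in the untreated library. Overlap alone does not make their levels equal. Their order depends on the length used: per kilobase of coding sequence, CCR4 was above CCR8 in both libraries, at 65.0 against 28.6 CPM with doxorubicin and 24.8 against 15.3 CPM untreated. The annotated transcripts measure 3095 bases for CCR4 and 1253 for CCR8, with coding lengths of 1080 and 1065.

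Transcript length also went with the ratio between the libraries over the whole table, so the ratios were compared with those of measured genes of like length. For a transcript as long as that of CCR8 the fitted curve lay at a log2 ratio of -0.42, and for that of CCR4 at 0.009. Relative to the curve, the log2 ratio was 1.32 for CCR8 (1.18 to 1.46) and 1.38 for CCR4 (1.28 to 1.49). The adjusted intervals of the pair overlap. CCR7 was at 0.38, CXCR3 at 0.31 (0.10 to 0.53) and CXCR4 at -0.13 (-0.17 to -0.09). With this adjustment 4.93% of 11211 genes were called higher and 4.72% lower (9.65% in all), and CCR4 and CCR8 were still the 2 members called higher. With scaling by total counts instead of TMM, 9.64% of genes were called higher and 7.58% lower (17.2% in all), and again CCR4 and CCR8 were higher and 0 members lower. What underlies the relation with length was not tested.

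**Figure D2:**
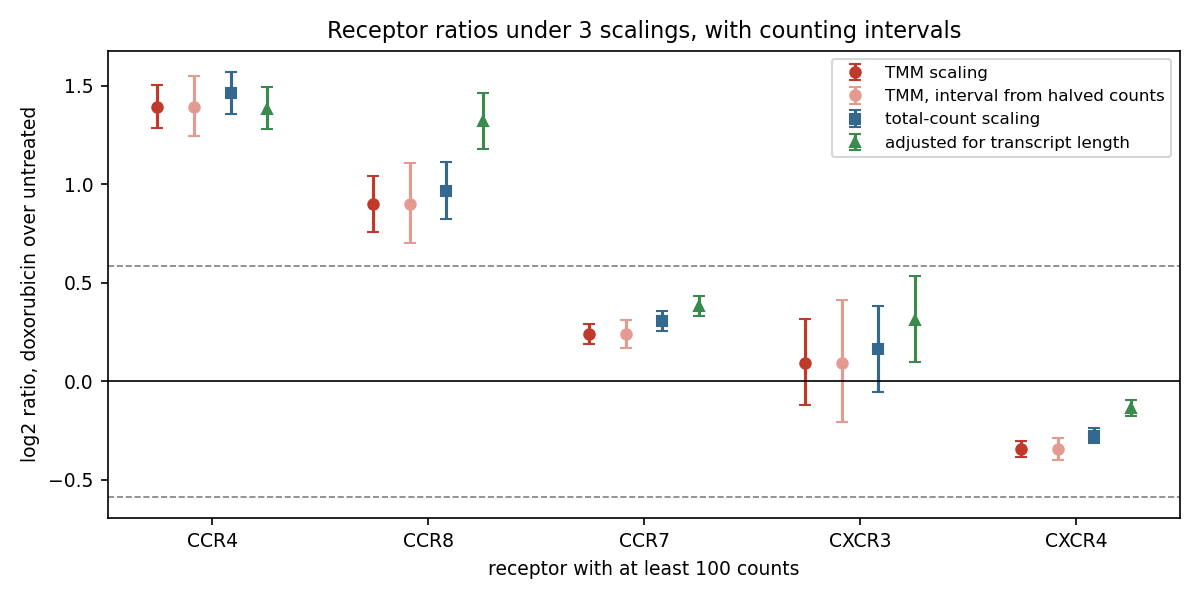
Log2 ratio of doxorubicin over untreated for the 5 receptors with at least 100 counts, with 95% counting intervals, under TMM scaling, with the interval from halved counts, under total-count scaling and after adjustment for transcript length. Dashed lines mark 1.5-fold. CCR4 and CCR8 lie above the upper line in every setting drawn, and CXCR4 lies between 0 and the lower line in each.

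**Figure D3:**
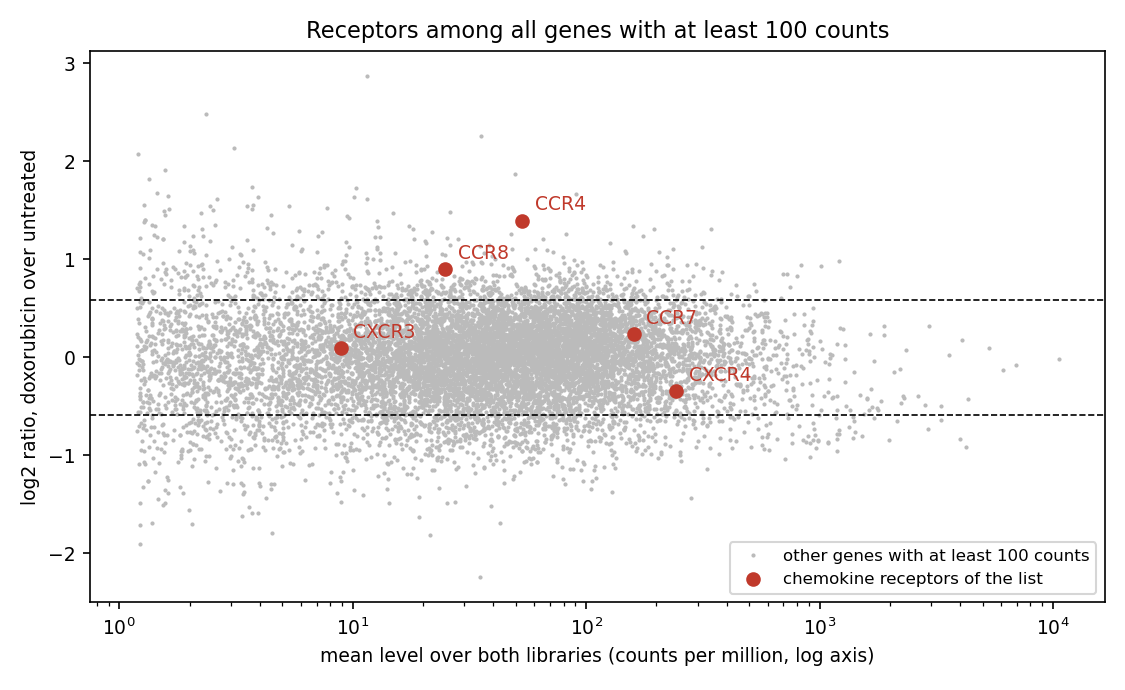
Log2 ratio of doxorubicin over untreated against mean level in CPM (log axis) for the 11244 genes with at least 100 counts, with the 5 measured receptors in red and dashed lines at 1.5-fold. CCR4 lies at the upper edge of the genes of its level, and CCR7, CXCR3 and CXCR4 lie within the main body of genes.

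Some genes beside CCR4 on chromosome 3 were also called higher, and whether the region changed as a whole was not tested. Of the 3 protein-coding genes on either side, a set chosen after the data were examined, 5 were measured. Of these, 2 were higher and 0 lower, beside 7.26% higher and 9.57% lower over all measured genes. GLB1, which encodes the lysosomal beta-galactosidase, had 5556 counts with doxorubicin and 2037 untreated, a log2 ratio of 0.81 (0.73 to 0.88). TMPPE, which shares 2.09% of its exon bases with GLB1 on the same strand, had 113 and 25 counts, a log2 ratio of 1.51 (0.90 to 2.22). GLB1 and TMPPE are thus not fully separate neighbours. The other 3 measured neighbours were DYNC1LI1 at -0.30, CNOT10 at 0.08 and CRTAP at 0.28. TRIM71, next to CCR4 on the side away from GLB1, had 56 counts with doxorubicin and 36 untreated, under the count minimum. Around CCR8, the 3 measured neighbours of 6 had log2 ratios from -0.26 to 0.10, and 0 were called. CX3CR1, directly beside CCR8, had 34 counts with doxorubicin and 8 untreated, under the count minimum. Its log2 ratio was 1.38 (0.31 to 2.77). Around CCR7, CXCR3 and CXCR4, 1 of 10 measured neighbours was called, TAF1 near CXCR3, at 0.73 (0.64 to 0.81), or 0.43 after adjustment for length.

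**Figure D4:**
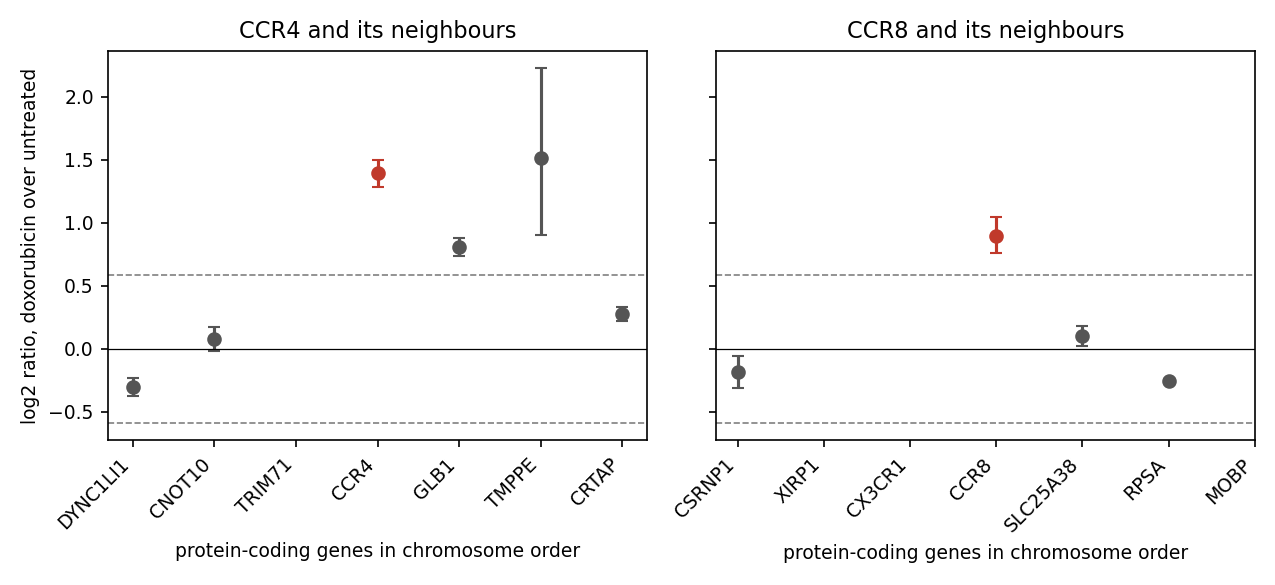
Log2 ratio of doxorubicin over untreated, with 95% counting intervals, for CCR4 (left) and CCR8 (right) in red and the 3 protein-coding genes on either side in chromosome order. Genes with under 100 counts have no point, and dashed lines mark 1.5-fold. GLB1 and TMPPE beside CCR4 lie above the line, and no drawn neighbour of CCR8 does. CX3CR1, directly beside CCR8, is not drawn because it had under 100 counts.

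The promoter of CCR4 is printed because its mRNA had the highest ratio among the 5 measured members, and GATA3, a transcription factor of helper type 2 cells, was abundant in both libraries. RefSeq promoter windows, from 250 bases before a transcript start to 50 after it, were at hand for 7 of the 10 receptors, with 13 starts in all. The CCR4 window is chr3:32951394-32951693 on the plus strand of GRCh38.p14, whereas the counts were made on hg19. It is printed 5′ to 3′ with the GATAA match in capitals.
CCR4 promoter: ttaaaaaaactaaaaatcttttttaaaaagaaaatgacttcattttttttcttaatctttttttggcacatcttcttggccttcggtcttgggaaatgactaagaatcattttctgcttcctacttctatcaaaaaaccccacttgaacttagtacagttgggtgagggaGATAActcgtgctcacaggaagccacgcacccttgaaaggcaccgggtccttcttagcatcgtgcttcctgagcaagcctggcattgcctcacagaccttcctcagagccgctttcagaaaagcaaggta

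Searched on either strand, the CCR4 window holds 1 match to GATAA, the core bound by GATA factors, which starts at position -80 from the transcript start. It holds no match to TGANTCA, the letters of an AP-1 site. GATAA occurs in 22.7% of all 35116 RefSeq windows and in 3 of the 13 receptor windows, and TGANTCA in 7.71% of all windows and 1 of the 13. GATA3 mRNA itself was at 232.3 CPM with doxorubicin and 297.6 CPM untreated, a log2 ratio of -0.36 (-0.40 to -0.32). Whether GATA3 acts on CCR4 in these cells was not tested.

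Receptors of the family outside the 10 were scarce. CCR1, a receptor for inflammatory chemokines mostly known from myeloid cells, had 124 counts with doxorubicin and 52 untreated, a log2 ratio of 0.60 (0.13 to 1.11), and passed the size rule narrowly. With counts halved for the interval it no longer did. CCRL2, a receptor-like protein that binds chemerin, had 244 and 73 counts, 2.13-fold higher with doxorubicin (1.64 to 2.82). ACKR3, the scavenging receptor for CXCL12, had 191 and 141 counts, a log2 ratio of -0.20 (-0.52 to 0.12).

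The ligands of CCR4 and CCR8 were not made by these cells at a level the depth could show. CCL17 and CCL1 had 0 counts in both libraries, as had CCL19, CCL21, CXCL12 and CXCL13, and CCL22, the other CCR4 ligand, had 1 count with doxorubicin and 0 untreated. Of the 15 ligands of the 10 receptors, 4 were measured, of which 0 were higher and 1 was lower. For this and the lists below, the shares over all measured genes were 7.26% higher and 9.57% lower. After the length adjustment they were 4.93% and 4.72%. CCL20, the ligand of CCR6, had 185 counts with doxorubicin and 193 untreated, a log2 ratio of -0.70 (-1.001 to -0.40), but -0.08 after adjustment for length. CXCL10, a ligand of CXCR3, stood at 27.9 CPM with doxorubicin and 32.99 CPM untreated. The median of the 4 was -0.26 before adjustment and 0.12 after it, so the list has no settled direction.

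Among 22 other chemokines, 3 were measured, 0 were higher and 1 was lower. CCL5, a chemoattractant for T cells, was the most abundant at 530.9 CPM with doxorubicin and 645.8 CPM untreated, a log2 ratio of -0.28, and 15.1% of its sampled stretches occur in other genes. XCL1 was lower at -0.61 (-0.92 to -0.29), but at -0.23 after adjustment and -0.54 under total-count scaling, neither called, and shares 15.1% of its stretches with XCL2.

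Downstream of the receptors, 1 of 22 measured G proteins and effectors was higher and 3 were lower. Over all measured genes, 7.26% were higher and 9.57% lower. The median log2 ratio of the 22 was 0.03 and turned to -0.08 after adjustment for length. DOCK2, the exchange factor that activates Rac in migrating lymphocytes, had 14002 counts with doxorubicin and 4688 untreated, or 272.6 CPM against 142.3 CPM. It was 1.92-fold higher (1.85 to 1.98), and its adjusted log2 ratio was 0.71. RAC1, a Rac GTPase with 16.5% of its sampled stretches in other genes, was lower at -0.66 (-0.71 to -0.60), but at -0.54 after adjustment, below the size limit. RAP1A, a GTPase that activates integrins, was lower at -0.60 (-0.65 to -0.54) and at -0.77 after adjustment, but at -0.53 and not called under total-count scaling. GNG5, a G protein gamma subunit whose exons other genes overlap over 43.8% of their length, was lower at -1.09 and at -0.44 after adjustment.

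Of 13 measured genes that switch the receptors off or recycle them, 0 were higher and 2 were lower, with a median of -0.06 that was 0.01 under total-count scaling. RGS10 and RGS1, which speed up GTP hydrolysis by G protein alpha subunits, were at -0.93 (-0.99 to -0.86) and -0.85 (-0.89 to -0.80). After the length adjustment RGS10 was at -0.31 and RGS1 at -0.49, which the size rule did not call. GRK2, the kinase that marks active receptors for arrestin binding, was at 0.03. Of 5 measured genes for tyrosine sulfation, a modification of receptor tails that strengthens ligand binding, 1 was higher and 0 were lower, with a median of 0.09. After adjustment the median was -0.12 and 2 were higher, TPST1 and SLC35B2, a transporter of the sulfate donor, at 0.66. TPST1, a tyrosylprotein sulfotransferase, had 144 counts with doxorubicin and 49 untreated, 1.87-fold higher (1.35 to 2.66).

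Among genes that work with CCR4 in skin homing, 1 of 10 measured was higher and 1 was lower, with a median log2 ratio of 0.25 and 0.16 after adjustment. ITGA4, an integrin chain that binds VCAM-1, was at 142.6 CPM with doxorubicin and 86.3 CPM untreated, 1.65-fold higher (1.58 to 1.73). B3GNT5, a glycosyltransferase, had 47 and 85 counts, a log2 ratio of -1.49 (-2.04 to -0.97), and 25.3% of its exons overlap an antisense gene. FUT7, the fucosyltransferase that makes the skin-homing selectin ligand, had 0 counts with doxorubicin and 2 untreated, but 58.7% of its exons overlap other genes. SELPLG, which carries that ligand, was at 65.9 CPM with doxorubicin and 56.3 CPM untreated, a log2 ratio of 0.23 (0.15 to 0.31).

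Of 5 measured partners in lymph node and gut homing, 0 were higher and 0 were lower, with a median of -0.05 that was 0.02 under total-count scaling and 0.29 after adjustment. GPR15, a colon-homing receptor, was at -0.13 (-0.22 to -0.04), and ITGB7, an integrin chain for gut homing with 51.4% of its exons overlapped by an antisense gene, was at 0.53 (0.43 to 0.63) and passed the size rule only under total-count scaling, at 0.60. Of 8 measured transcription factors of T cell subsets, 1 was higher and 0 were lower, with a median of 0.20, or 0.04 after adjustment. PRDM1, which encodes Blimp-1, had 240 counts with doxorubicin and 92 untreated, 1.67-fold higher (1.31 to 2.15), though its adjusted log2 ratio of 0.55 was below the size limit.

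**Figure D5:**
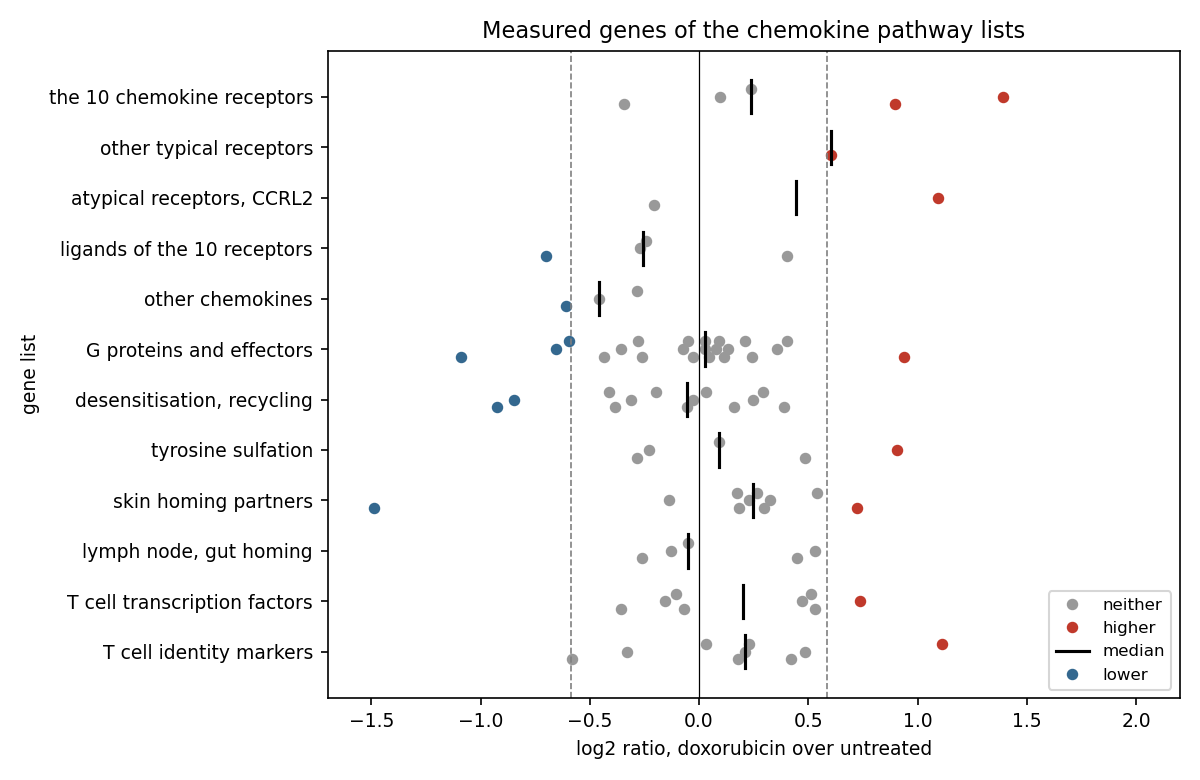
Log2 ratio of doxorubicin over untreated for each gene with at least 100 counts in the 10 receptors and the lists around them, coloured by the size rule, with the list median as a black bar and dashed lines at 1.5-fold. Called genes lie on both sides, and CCR4 is the rightmost point.

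The label of T lymphocytes was checked against 12 T cell markers, of which 9 were measured. CD3D, CD3E, CD3G, CD247, CD5 and LCK were among them, but CD2 had 2 counts with doxorubicin and 0 untreated, CD7 had 8 and 8, and CD28 had 13 and 8. The summed level of the 12 was 1352 CPM with doxorubicin and 1283 CPM untreated. CD3G was 2.16-fold higher (2.01 to 2.33), 0 of the 9 were called lower, and the median log2 ratio was 0.21. Of the 9, 7 had a log2 ratio above 0, and the lowest was at -0.58, just short of the size limit. After the length adjustment CD247 and LCK were also called higher, at 0.69 and 0.64, and the lowest of the 9 was at -0.16. Of 7 B cell markers, 3 were measured. The 7 summed to 201.6 CPM with doxorubicin and 263.4 CPM untreated, mostly from CD79A and BLK, while PAX5 and CR2 had 0 counts. The 9 myeloid markers summed to 2.78 CPM with doxorubicin and 1.79 CPM untreated, with FCGR3A, S100A8 and S100A9 at 0. CD68, the only measured gene among them, held 127 of the 143 counts with doxorubicin and 49 of the 59 untreated. Its log2 ratio was 0.72 (0.25 to 1.24), but other genes cover 100% of its exons. The 6 natural killer markers summed to 50.7 CPM with doxorubicin and 58.8 CPM untreated, mostly NKG7 and GNLY, with NCR1 at 0. The 7 epithelial and fibroblast markers summed to 70.0 CPM with doxorubicin and 84.7 CPM untreated, mostly EPCAM, with DCN at 0. In the last 3 lists and among B cell markers, 1 gene in all was called, CD68. The part of such RNA in the receptor differences was not tested.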

How the data were processed

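Polyadenylated RNA of 2 H9 libraries, 1 per condition, was analysed from the table of raw counts, whole numbers of reads per gene, that the authors deposited. Per the submitters' processing notes, HISAT2, featureCounts and the build hg19 were used. Neither versions nor the annotation and the strand setting are stated. Counts were scaled with TMM (edgeR 4.0.16, R 4.3.3), and log2 ratios used an added count of 0.5. Ratio intervals are exact Clopper-Pearson intervals at 95%, Poisson intervals are exact, and both cover counting error only, since PCR copies were not told apart by molecular identifiers. The interval of a ratio between 2 receptors used the normal approximation on the log scale. Even numbers were in excess among counts from 1 to 50 (57.7% with doxorubicin and 59.8% untreated), so intervals from halved counts were added after the data were examined. The totals were 50174434 and 33730703 counts, and 11244 genes with at least 100 counts were measured. Lengths, exon overlaps and shared stretches came from GENCODE release 29 on GRCh38, which is not the build of the counts, and lengths were found for 99.7% of measured genes. The length curve was a lowess of span 0.3 (statsmodels 0.14.6). The members and lists were chosen with earlier results of these data known. Genes were named by rule: all members and, from each list, up to 3 highest and 3 lowest past the size rule, or the 2 with most counts where none passed, with the 3 family genes outside the members that had most counts. Others were named after their values were seen: neighbours of the receptors, ligands, GATA3, GRK2, SELPLG, FUT7, SLC35B2, CD247, LCK and markers at or near 0. Alternatives were DESeq2 1.42.0 size factors, total counts, count minimums of 20 and none, a limit of 2-fold, a 99% interval, an added count of 5 and the length adjustment.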

Additional observations from a re-analysis of the deposited data

How the results depend on the processing

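CCR4 and CCR8 stayed the 2 members called higher under DESeq2 size factors, total counts, the length adjustment, both other count minimums, the 99% interval and halved counts, and the log2 ratio of CCR4 lay between 1.38 and 1.46. At a limit of 2-fold, 1 member was higher. With a count minimum of 20, 1 member (CCR10) was lower, and with no minimum 2 were (CCR10 and CXCR5). Over the whole table, the minimum of 20 gave 1002 genes higher and 1282 lower, and no minimum gave 1079 and 1442. Over all measured genes, the main setting called 816 higher and 1076 lower. The 2-fold limit gave 128 higher and 175 lower, and the length adjustment 529 lower. Of the 171 listed genes outside the members, 90 were measured, of which 8 were higher and 8 lower, against 2 and 2 at 2-fold, 10 and 2 after the length adjustment, and 11 and 6 with total counts. The cause of these changes was not tested. The split of calls moved with scaling, as total counts called 9.64% of genes higher and 7.58% lower. No paired analysis was possible because there is 1 library per group and the labels state no pairing. At this depth, counting error is wide for members with under 100 counts, and the spread between cultures was not measured.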

Other observations

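Some receptors of inflammatory and tissue-surveying leukocytes had more counts with doxorubicin but stayed under the count minimum, and they are named here after their values were seen. CCR2, the receptor for CCL2, had 33 counts with doxorubicin and 4 untreated, a ratio of scaled counts of 5.29 with a counting interval from 1.88 to 20.6. CX3CR1, the receptor for the membrane-bound chemokine CX3CL1, had 34 and 8 counts, a ratio of 2.73 (1.24 to 6.82). With halved counts the interval was 1.21 to 46.0 for CCR2 and 0.889 to 11.1 for CX3CR1, which includes 1. CCR3, a receptor known from eosinophils, had 30 and 23 counts, and CXCR2, a receptor of neutrophils, had 14 and 12, less of a gap than that between the library sizes.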
